A study of Homo sapiens with 6 samples.

Results

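The genes described here encode the motors that move along microtubules and their subunits: the kinesins with the kinesin light chains, cytoplasmic dynein with its intermediate and light chains, and dynactin. They were chosen by gene symbol, as every row of the deposited count table whose symbol begins with KIF and a digit or C, KLC, DYNC1, DYNLL, DYNLT, DYNLRB or DCTN. This rule was met by 67 of 20532 genes, 46 of them kinesins or kinesin light chains, 15 subunits of cytoplasmic dynein and 6 subunits of dynactin. Kinesins use ATP to walk, mostly towards the plus ends of microtubules, carrying organelles and vesicles outwards or sliding and trimming the microtubules of the mitotic spindle. Cytoplasmic dynein walks towards the minus ends and needs dynactin and a cargo adaptor to travel far. In dividing cells such as cancer lines these motors serve mitosis, organelle placement and migration.

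RNA was measured in MDA-MB-231 M3 cells, a human breast cancer line named after MDA-MB-231, which is known as triple-negative and mesenchymal-like. In 3 libraries PRMT1, the main enzyme of asymmetric arginine dimethylation, had been knocked down with siPRMT1, and 3 libraries came from cells labelled untreated or control; each is labelled a biological replicate. The labels do not say whether controls received an siRNA of another sequence, nor when cells were collected. Libraries held 16968563 to 20545995 counts. PRMT1 had 193, 218 and 181 counts in the siPRMT1 libraries, against 3160, 2991 and 3072 counts in the control libraries, a log2 fold change of -3.62. The labelled line was checked by markers: VIM averaged 2368 ± 9.74 CPM in siPRMT1 cells and 1817 ± 13.4 CPM in control cells, while the oestrogen and progesterone receptor genes ESR1 and PGR and the leukocyte gene PTPRC lay under 1 CPM in both groups. VIM rose by log2 fold change (0.38) but was called lower (-0.11) after a correction for GC content and length, described below. Of 5 mesenchymal and basal markers, VIM among them, 2 rose and 3 fell, and 2 were called higher and 2 lower after correction. Of 10 marker genes of blood, endothelial and bone cells, summed levels ran from 31.7 to 34.0 CPM in siPRMT1 libraries and from 26.5 to 27.7 CPM in control libraries, most of it PECAM1. Of the 3 markers tested PECAM1 did not pass (-0.07), but it was called higher after correction (0.56) and lower by library size alone (-0.39). The bone gene BGLAP (1.83, 0.63 corrected) and the monocyte gene CD14 (0.94, -0.23 corrected) rose by log2 fold change. PTPRC, CD3E, CDH5 and IBSP lay at or near 0, and the part of these marker genes in the results was not tested. Levels are in CPM, counts scaled to a common library size, after TMM scaling, which assumes that most genes do not shift. Fold changes are on the log2 scale, siPRMT1 minus control, and a gene is said to have risen or fallen where the adjusted p (edgeR's quasi-likelihood test, Benjamini-Hochberg over all 13710 tested genes) was under 0.05. In bulk RNA, fewer cells of a kind and less RNA per cell cannot be told apart.

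Of the 67 genes, 56 passed the filter on low counts, and 23 of them rose and 26 fell. Over all tested genes 89.3% passed the threshold, 44.3% higher and 45.0% lower, so the motor genes were called about as often as the transcriptome they belong to. At least 2-fold changes were found for 8 higher and 13 lower motor genes, where 15.3% and 21.0% of all tested genes changed that much in these directions. The 3 libraries of one group did not overlap those of the other for 49 of the 56 genes, against 89.1% of all tested genes. The median log2 fold change was -0.074 for the motor genes and -0.0082 for all genes. Of 37 kinesins and light chains 14 were higher and 21 lower (median -0.39), and of 19 dynein and dynactin genes 9 were higher and 5 lower (median 0.097). When libraries were scaled by their totals alone, the median over all genes shifted by -0.317, and the split was 15 higher and 34 lower for all 56, 9 and 25 for the kinesins, and 6 and 9 for dynein and dynactin. Across the transcriptome the fold change also followed GC content and length of the transcript. A value fitted after removing both properties therefore stands beside most genes named below, called the corrected value. With it 44.9% of all genes were higher and 35.6% lower, against 25 and 21 of the 56 motor genes. The corrected median was 0.037 for the motor genes and 0.068 for all genes. The corrected split was 13 higher and 17 lower for the kinesins (median -0.098), and 12 higher and 4 lower for dynein and dynactin (median 0.24). At least 2-fold corrected changes were found for 4 higher and 3 lower motor genes (5.71% and 8.51% of all genes).

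**Figure D1:**
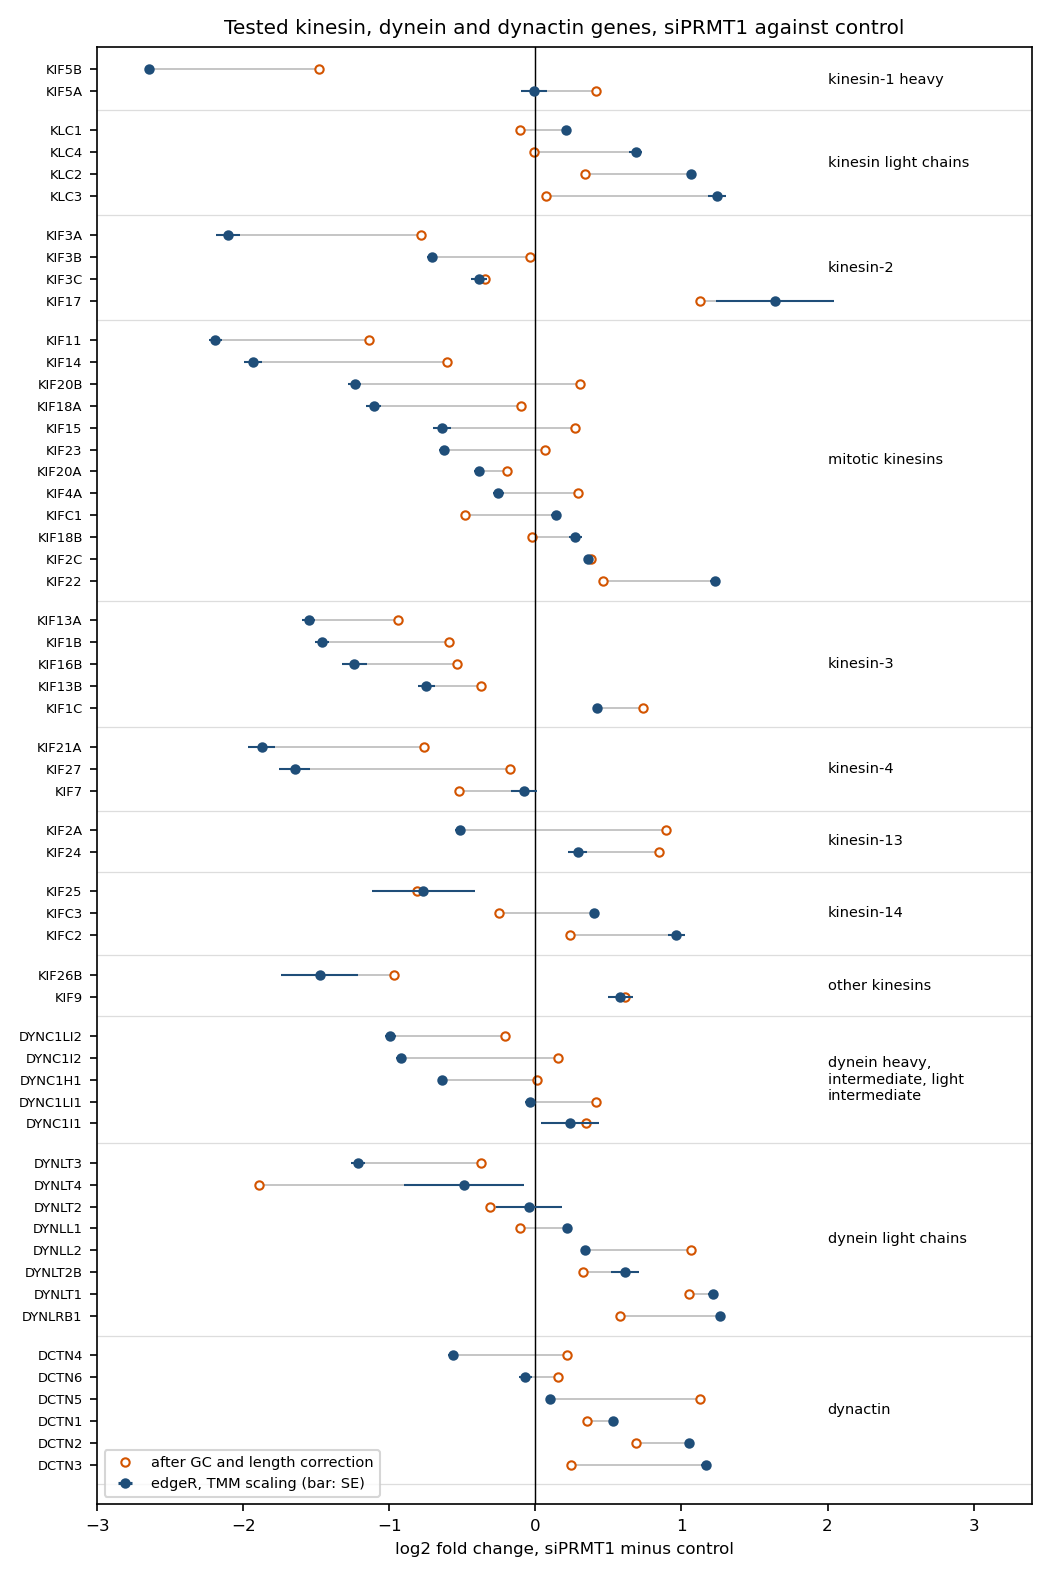
Log2 fold changes (siPRMT1 minus control, horizontal axis) of the 56 tested genes by role, with the standard error as a bar. Open points give the value after correction for GC content and length, and a kinesin of the mitotic list is drawn there and not with its family; KIF5B lies lowest at -2.65 (-1.48 corrected).

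Kinesin-1, the main carrier of mitochondria, lysosomes and secretory vesicles, is built from heavy chains that hold the motor and light chains that recognise cargo. Its ubiquitous heavy chain gene KIF5B (ENSG00000170759; hg38, chromosome 10, 32009015 to 32056425, minus strand) had 41.5, 40.8 and 41.6 CPM in the siPRMT1 libraries, against 262, 261 and 252 CPM in the control libraries. All siPRMT1 libraries lay far under all controls. The fall was 6.26-fold, with a log2 fold change of -2.65 (SE 0.0303; adjusted p = 2.63e-315 by edgeR), and the corrected value was -1.48. Of all tested genes 1.70% had a lower log2 fold change, and 3.68% a lower corrected one. KIF5A, a heavy chain used mainly by neurons, had 10.4, 8.97 and 9.26 CPM in the siPRMT1 libraries, against 9.81, 9.55 and 9.36 CPM in the control libraries. Its groups overlapped and it did not pass (-0.0099, adjusted p = 0.916 by edgeR), but it was lower by library size alone (-0.33) and higher after correction (0.41). KIF5A shares 1116 bases with DCTN2 on the opposite strand, the library kit kept the strand per the labels, and no source states the strand setting of the counting. KIF5C, the other neuronal heavy chain gene, was under the filter with 0, 0 and 0 counts in the siPRMT1 libraries, against 3, 5 and 2 counts in the control libraries.

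All 4 kinesin light chain genes rose. KLC1, the most abundant of them, had 147, 147 and 150.1 CPM in the siPRMT1 libraries, against 130.4, 127 and 126 CPM in the control libraries, a log2 fold change of 0.21 (SE 0.0260; adjusted p = 5.70e-15 by edgeR) that turned to -0.11 by library size alone and to -0.10 after correction. KLC2, which also links kinesin-1 to lysosomes through its partner PLEKHM2, had 130.0, 135 and 132 CPM in the siPRMT1 libraries, against 64.5, 64.2 and 60.7 CPM in the control libraries. It was higher in every siPRMT1 library, with a log2 fold change of 1.07 (SE 0.0308; adjusted p = 2.05e-137 by edgeR; 0.34 corrected). KLC3, a chain known from sperm tails in rodents, was the highest by fold change (1.24, 0.076 corrected), with 27.7, 28.3 and 30.8 CPM in the siPRMT1 libraries, against 11.5, 12.04 and 13.1 CPM in the control libraries. KLC4 rose by 0.69, but was at -0.0078 after correction. Thus the rise of KLC2 kept its sign and its call after correction, while KLC3 was no longer called. KLC1, KLC3 and KLC4 overlap other genes on the opposite strand, and KLC1 also overlaps COA8 and the whole of ENSG00000256500 on its own strand, so their reads may be shared.

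Ratios within a library do not depend on scaling between libraries, so the chains were also set against each other per kilobase of the canonical transcript. They do carry the trend with GC content and length, so the fold change that the corrected values give, applied to the control levels, is set beside the ratios. This was added after the data had been seen. The sum of kinesin-1 heavy chains over the sum of light chains was 0.0640, 0.0601 and 0.0609 in the siPRMT1 libraries, against 0.50, 0.501 and 0.491 in the control libraries. The groups were far apart, and the ratio was 8.06-fold lower after knockdown (2.61-fold with the corrected values). An exact two-sided permutation test of 3 against 3 libraries gave p = 0.1, the smallest value this design allows, here and for all 15 ratios computed. KIF5B made up 79.8, 81.7 and 81.6% of the heavy chain level per kilobase in siPRMT1 libraries, against 96.3, 96.3 and 96.3% in control libraries. This share was 0.84 times that of controls (0.91 times with the corrected values). KLC1 made up 41.6, 40.7 and 41.2% of the light chain level in siPRMT1 libraries, against 55.1, 54.2 and 54.1% in control libraries, 0.76 times the control share (0.91 times with the corrected values). The ratio of KIF5B to the dynein heavy chain gene DYNC1H1 was 0.387, 0.381 and 0.380 in siPRMT1 libraries, against 1.56, 1.55 and 1.5 in control libraries. In control cells KIF5B stood above DYNC1H1 per kilobase, and in siPRMT1 cells it stood below it, 4.02-fold lower as a ratio (2.81-fold with the corrected values).

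**Figure D2:**
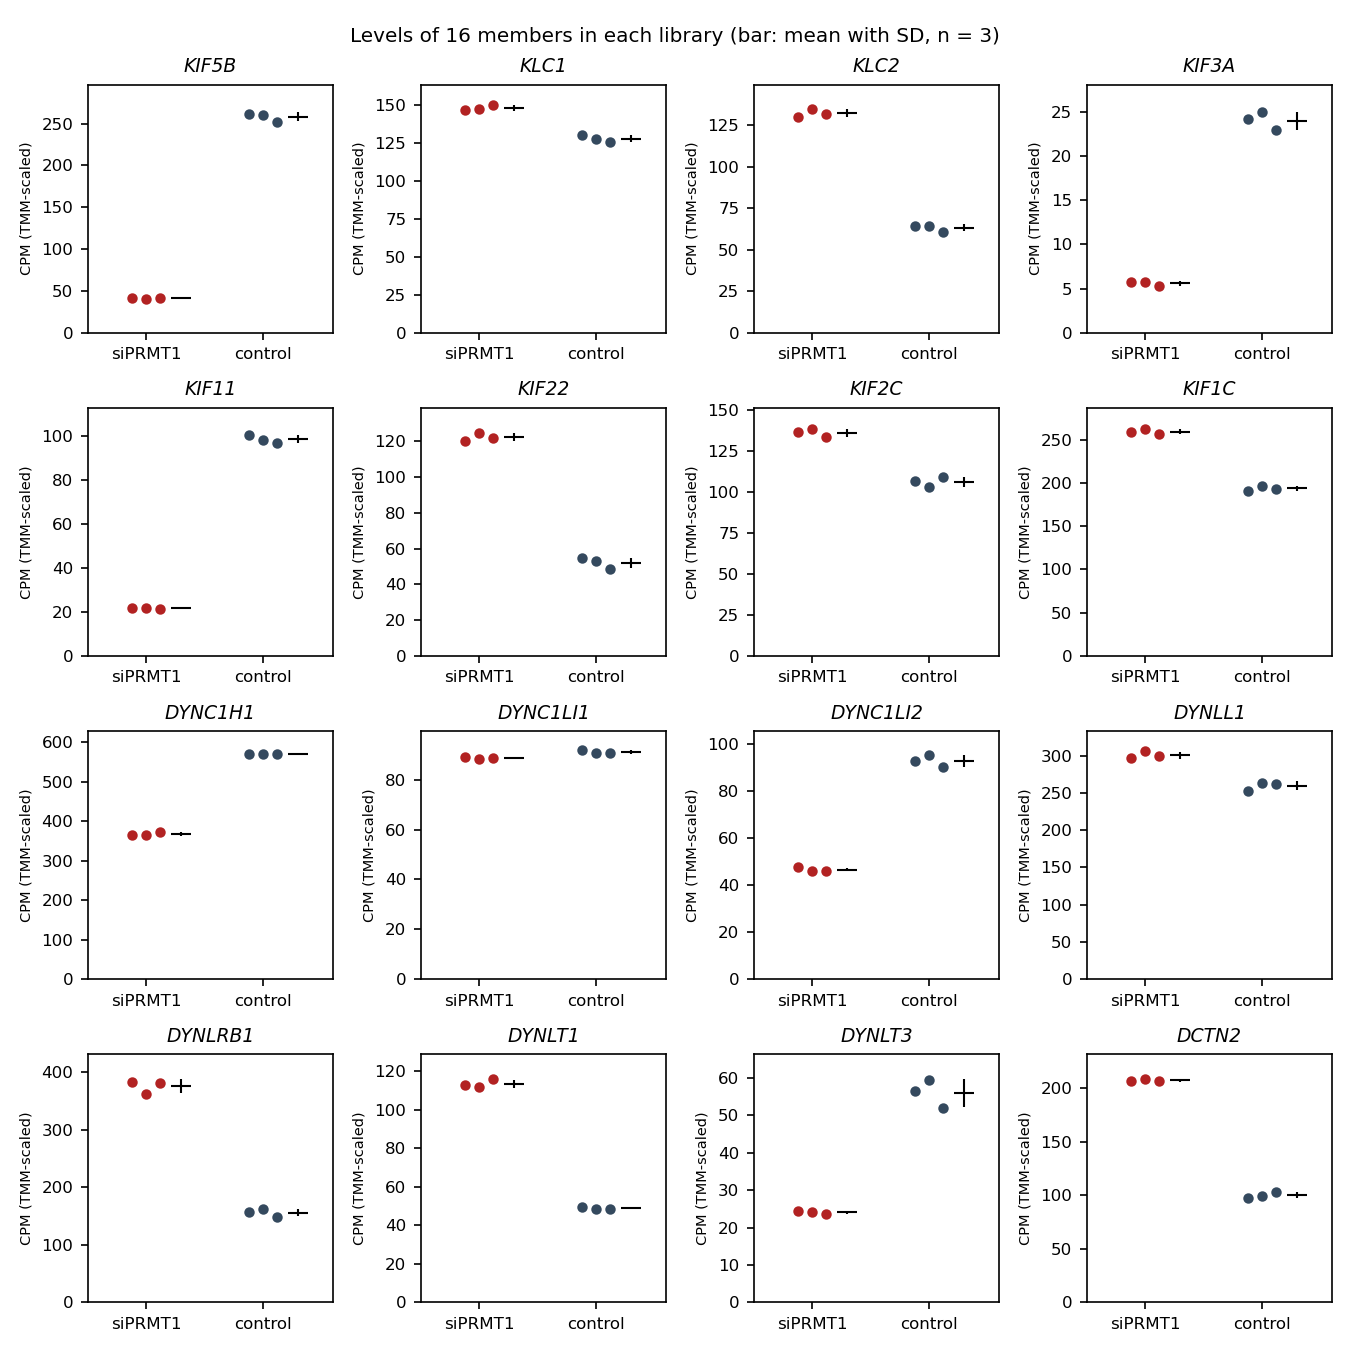
Levels of 16 genes in each library (vertical axes: TMM-scaled CPM, starting at 0), with the mean and SD of the 3 libraries as a bar beside the points. The groups do not overlap in any panel, though for DYNC1LI1 they lie close (88.8 ± 0.370 CPM in siPRMT1 cells and 91.1 ± 0.773 CPM in control cells).

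Kinesin-2 motors carry cargo into cilia and membranes outwards, as a trimer of KIF3A, KIF3B and the accessory protein KIFAP3. KIF3A had 5.71, 5.76 and 5.26 CPM in the siPRMT1 libraries, against 24.2, 24.99 and 23.0 CPM in the control libraries. It was 4.30-fold lower in siPRMT1 cells, with a log2 fold change of -2.10 (SE 0.0818; adjusted p = 1.01e-94 by edgeR; -0.78 corrected). Its partner KIF3B, the most abundant of the family, had 70.4, 75.6 and 76.5 CPM in the siPRMT1 libraries, against 123, 122 and 119 CPM in the control libraries and fell less (-0.71), with no call after correction (-0.034). KIF3C, which can replace KIF3B beside KIF3A, fell by 0.39, with almost the same corrected value (-0.35). The ratio of KIF3B to KIF3A per kilobase was 12.7, 13.5 and 15.0 in siPRMT1 libraries, against 5.24, 5.05 and 5.33 in control libraries, 2.64-fold higher after knockdown (1.68-fold with the corrected values). KIF17, a homodimeric kinesin-2 known from dendrites in the mouse, was scarce with 13, 15 and 12 counts in the siPRMT1 libraries, against 4, 4 and 8 counts in the control libraries. Its log2 fold change of 1.64 was the highest of all 56 genes but the least certain of the large ones (SE 0.402; 1.13 corrected).

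Of the 6 tested kinesin-3 genes, motors of vesicles and endosomes, 5 fell and KIF1C rose. KIF14 fell most and is described with the mitotic kinesins. KIF13A, a carrier of recycling endosomes, had 21.8, 20.4 and 21.9 CPM in the siPRMT1 libraries, against 61.4, 64.1 and 62.4 CPM in the control libraries and fell by 1.55 (SE 0.0472; adjusted p = 1.79e-129 by edgeR; -0.94 corrected). KIF1B, which moves mitochondria and vesicle precursors, fell by 1.46 (-0.59 corrected), and KIF16B, the early endosome motor, fell by 1.24 (-0.54 corrected). KIF13B, which binds the polarity protein DLG1, fell by 0.75 (-0.37 corrected). These falls kept their direction and their call after correction. KIF1C, which carries vesicles with integrins towards the rear of migrating cells, was the most abundant kinesin-3 gene with 259, 262 and 257 CPM in the siPRMT1 libraries, against 191, 196 and 193 CPM in the control libraries. It was higher in each siPRMT1 library, with a log2 fold change of 0.42 (SE 0.0212; adjusted p = 6.29e-66 by edgeR), and the corrected value was larger (0.74).

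Among kinesin-4 genes, KIF21A, a cortical motor that slows microtubule growth, had 5.46, 4.68 and 3.81 CPM in the siPRMT1 libraries, against 17.1, 17.4 and 16.8 CPM in the control libraries. The groups were well apart and it fell by 1.87 (SE 0.0930; adjusted p = 4.47e-67 by edgeR; -0.77 corrected). KIF27 fell by 1.65, but the corrected value of -0.17 was not called. KIF7, a regulator of Hedgehog signalling at the tip of the cilium, had 8.81, 10.4 and 9.79 CPM in the siPRMT1 libraries, against 9.72, 11.0 and 9.98 CPM in the control libraries. These overlapped and KIF7 did not pass (-0.078, adjusted p = 0.393 by edgeR), although it was lower by library size alone (-0.39) and after correction (-0.53). KIF4A belongs to this family too and is given with the mitotic kinesins. Its intronless copy KIF4B had 2 counts in all controls together, and reads shared between these near-identical genes cannot be told apart.

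The 12 mitotic kinesins, taken across families, moved in both directions, with 8 lower and 4 higher. Their median was -0.51 (0.021 corrected), beside -0.0082 (0.068 corrected) for all genes. All 12 passed, where 89.3% of all tested genes did. KIF11 (Eg5; ENSG00000138160; hg38, chromosome 10, 92574105 to 92655393, plus strand), which pushes the spindle poles apart and is the target of antimitotic inhibitors, had 21.8, 21.8 and 21.2 CPM in the siPRMT1 libraries, against 101, 98.4 and 96.8 CPM in the control libraries. Every siPRMT1 library lay under every control, and it fell 4.57-fold, with a log2 fold change of -2.19 (SE 0.0427; adjusted p = 8.31e-207 by edgeR; -1.14 corrected). KIF15, the motor that can take over when KIF11 is blocked, fell by 0.64 but was higher after correction (0.27). KIF14, needed with citron kinase for cytokinesis, had 10.3, 10.2 and 11.2 CPM in the siPRMT1 libraries, against 39.4, 40.3 and 41.3 CPM in the control libraries and fell by 1.94 (-0.61 corrected). KIF20A, which brings the chromosomal passenger complex to the midzone, fell by 0.39 (-0.19 corrected). KIF11, KIF14 and KIF20A were the 3 genes of this list that fell and were still called lower after correction. KIF20B (-1.24, 0.31 corrected), KIF23 (-0.63, 0.063 corrected) and KIF4A (-0.25, 0.29 corrected), which act in cytokinesis and at the central spindle, fell but had the opposite sign after correction. KIF18A, which damps the oscillation of chromosomes at the metaphase plate, fell by 1.11 and was not called after correction (-0.098).

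The mitotic kinesin that rose most was KIF22 (Kid; ENSG00000079616; hg38, chromosome 16, 29790727 to 29805301, plus strand), a chromokinesin that pushes chromosome arms away from the poles, with 120.2, 125 and 122 CPM in the siPRMT1 libraries, against 54.5, 53.0 and 48.8 CPM in the control libraries. It was higher in every siPRMT1 library, with a log2 fold change of 1.23 (SE 0.0327; adjusted p = 8.38e-151 by edgeR; 0.47 corrected). KIF2C (MCAK), a microtubule depolymerase that releases wrong attachments at the centromere, was the most abundant of the list with 136, 138 and 133 CPM in the siPRMT1 libraries, against 107, 103 and 109 CPM in the control libraries. It rose by 0.36 and by almost as much after correction (0.38), but was not called by library size alone (0.04). KIF18B, which shortens astral microtubules, rose by 0.27 with TMM scaling, but was not called with library size alone (-0.044) or after correction (-0.022). KIFC1 (HSET), which clusters extra centrosomes, likewise rose by 0.14 but was lower under both (-0.18 and -0.48). The ratio of KIF22 to KIF11 per kilobase was 13.3, 13.8 and 13.8 in siPRMT1 libraries, against 1.31, 1.30 and 1.22 in control libraries, 10.7-fold higher after knockdown (3.04-fold with the corrected values). CENPE, the kinesin of the kinetochore, whose symbol lies outside the rule, had 11.4, 14.1 and 10.4 CPM in the siPRMT1 libraries, against 55.5, 51.6 and 51.8 CPM in the control libraries, a log2 fold change of -2.13 (-0.52 corrected).

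Genes of proliferation and mitosis that are no motors also moved in both directions. Of 16, 11 rose and 5 fell (13 and 3 after correction, 7 and 7 by library size alone), where 44.3% of all tested genes rose and 45.0% fell. Their median was 0.33 (0.43 corrected, 0.012 by library size alone), beside -0.0082 (0.068 corrected, -0.325 by library size alone) for all genes. With TMM scaling their summed level ran from 2620 to 2632 CPM in siPRMT1 libraries and from 2417 to 2426 CPM in control libraries. By library size alone the siPRMT1 sums lie under the control sums, since the TMM factors were 0.895 to 0.897 in siPRMT1 and 1.116 to 1.117 in control libraries. The kinase gene AURKB (1.33), the activator gene CDC20 (1.31) and the cyclin gene CCNB1 (0.91) rose, and the corrected values were 0.43, 0.45 and 1.16. The topoisomerase gene TOP2A (-1.90, -0.74 corrected) and the checkpoint kinase gene BUB1 (-1.0, -0.32 corrected) fell, and the kinetochore gene CENPF fell by 0.77 but was higher after correction (0.51). The part of these genes' level in the result for the mitotic kinesins was not tested.

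Promoters of the mitotic kinesins are shown because these genes share a sequence element whatever way they moved. Sequences are the 250 bases before and 50 after the start in RefSeq on GRCh38.p14, present for 45 of the 56 tested genes. The element searched, on both strands, was the cell cycle homology region, TTTGAA or TTCGAA, known from genes expressed late in the cell cycle. It occurred in 10 of the 12 mitotic kinesins, 2 of 17 other kinesin promoters (KIF5B and KIF24), none of 16 dynein and dynactin promoters and 16.6% of the 27305 promoters in the table. Of the 10, KIF11, KIF14, KIF15, KIF18A, KIF20B, KIF23 and KIF4A fell and KIF18B, KIF22 and KIFC1 rose, with the exceptions after correction given above. The CCAAT motif also occurred in 10 of the 12, against 35.7% of all promoters. Below, capitals mark the element in a pair of strong movers, KIF11 and KIF22, and in the kinesin-8 relatives KIF18A and KIF18B. On the strand printed KIF11 reads TTCAAA, the reverse complement of TTTGAA. The deposited span of KIF11 begins upstream of this RefSeq start. The windows are chr10:92592880-92593179, plus strand, chr16:29790501-29790800, plus strand, chr11:28108107-28108406, minus strand and chr17:44947724-44948023, minus strand.
KIF11: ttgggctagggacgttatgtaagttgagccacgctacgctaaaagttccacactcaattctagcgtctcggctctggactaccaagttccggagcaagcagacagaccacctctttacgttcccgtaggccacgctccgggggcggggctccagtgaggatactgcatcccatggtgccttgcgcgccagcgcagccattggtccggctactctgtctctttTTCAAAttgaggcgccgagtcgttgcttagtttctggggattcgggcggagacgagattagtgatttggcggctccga
KIF22: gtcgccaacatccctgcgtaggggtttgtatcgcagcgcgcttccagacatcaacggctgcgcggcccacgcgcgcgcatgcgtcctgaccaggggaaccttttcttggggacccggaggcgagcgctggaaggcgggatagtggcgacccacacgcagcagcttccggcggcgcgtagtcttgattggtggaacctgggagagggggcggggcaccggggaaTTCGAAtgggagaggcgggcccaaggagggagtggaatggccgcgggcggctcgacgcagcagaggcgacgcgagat
KIF18A: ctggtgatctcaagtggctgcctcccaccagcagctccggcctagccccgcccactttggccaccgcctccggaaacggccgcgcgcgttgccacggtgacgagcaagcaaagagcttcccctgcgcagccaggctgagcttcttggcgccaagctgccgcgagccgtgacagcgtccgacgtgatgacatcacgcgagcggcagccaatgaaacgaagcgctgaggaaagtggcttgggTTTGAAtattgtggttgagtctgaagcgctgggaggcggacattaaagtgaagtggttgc
KIF18B: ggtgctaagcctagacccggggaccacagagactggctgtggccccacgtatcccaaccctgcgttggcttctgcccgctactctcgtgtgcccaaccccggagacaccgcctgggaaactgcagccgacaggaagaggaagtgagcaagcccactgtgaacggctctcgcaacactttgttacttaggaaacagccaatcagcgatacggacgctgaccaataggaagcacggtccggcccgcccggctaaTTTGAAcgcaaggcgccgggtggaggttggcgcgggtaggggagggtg

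The remaining kinesins belong to the kinesin-13 and kinesin-14 families or to none of these groups. KIF2A, a depolymerase of spindle poles and neurites, had 54.3, 54.6 and 52.0 CPM in the siPRMT1 libraries, against 77.8, 75.6 and 76.8 CPM in the control libraries and fell by 0.51, but it was called higher after correction (0.90). KIF2A overlaps ENSG00000288643 over 84820 bases on its own strand and DIMT1 over 43742 bases on the opposite strand, so reads may be shared. KIF24, which trims centrioles and restrains cilium formation, rose by 0.29 (0.84 corrected; -0.029 with library size alone). Of the minus-end directed kinesin-14 genes, KIFC3, active at adherens junctions, had 131, 132 and 127 CPM in the siPRMT1 libraries, against 93.9, 99.8 and 102 CPM in the control libraries. It rose by 0.40 but was lower after correction (-0.25), while KIFC2 rose by 0.97 (0.23 corrected). KIF25 had 11, 4 and 8 counts in the siPRMT1 libraries, against 14, 16 and 20 counts in the control libraries; it fell by 0.77 (adjusted p = 0.0355 by edgeR), and the call was lost with DESeq2 (adjusted p = 0.188), without siPRMT1 replicate 2 (edgeR, -0.38), without control replicate 2 (-0.76) and without control replicate 3 (-0.62). KIF9, a motor of cilia and flagella, rose by 0.58 (0.61 corrected). KIF26B, an atypical kinesin known from WNT5A signalling, had 8, 10 and 14 counts in the siPRMT1 libraries, against 37, 39 and 38 counts in the control libraries and fell by 1.48 (-0.97 corrected).

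In the core of cytoplasmic dynein, 3 of 5 genes fell and the other two did not pass. The heavy chain gene DYNC1H1 (ENSG00000197102; hg38, chromosome 14, 101964573 to 102056443, plus strand), which encodes the ATP-driven motor itself, had 365, 364 and 373 CPM in the siPRMT1 libraries, against 571, 570.2 and 571 CPM in the control libraries. Controls agreed to within 1 CPM, and siPRMT1 libraries were 1.56-fold lower, with a log2 fold change of -0.64 (SE 0.0180; adjusted p = 3.15e-141 by edgeR). After correction it was at 0.01 and not called. DYNC1I2, the ubiquitous intermediate chain that binds dynactin, had 53.8, 51.4 and 52.9 CPM in the siPRMT1 libraries, against 101, 101 and 96.7 CPM in the control libraries. It fell by 0.92, but was higher after correction (0.16). DYNC1I1, the intermediate chain of neurons, had 2.54, 1.52 and 2.17 CPM in the siPRMT1 libraries, against 1.51, 1.55 and 2.16 CPM in the control libraries, which overlapped (0.24, adjusted p = 0.257 by edgeR). DYNC1I1 was not called after correction either (0.34). The light intermediate chains, which hold the cargo adaptors, behaved unequally. DYNC1LI2 had 47.4, 46.0 and 46.0 CPM in the siPRMT1 libraries, against 92.6, 95.0 and 90.0 CPM in the control libraries and fell by 0.99 (SE 0.0361; adjusted p = 1.12e-103 by edgeR; -0.21 corrected). DYNC1LI1 had 89.2, 88.5 and 88.7 CPM in the siPRMT1 libraries, against 92.0, 90.7 and 90.6 CPM in the control libraries and did not pass (-0.037, adjusted p = 0.251 by edgeR), though it was lower with library size alone (-0.35) and higher after correction (0.41). The ratio of DYNC1LI1 to DYNC1LI2 per kilobase was 3.28, 3.35 and 3.36 in siPRMT1 libraries, against 1.73, 1.66 and 1.75 in control libraries, 1.94-fold higher after knockdown (1.54-fold with the corrected values).

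The small dynein light chains dimerise on the intermediate chains and fall into the LC8 (DYNLL), Tctex (DYNLT) and roadblock (DYNLRB) families. Of 8 tested, 5 rose, DYNLT3 fell and the other two, DYNLT2 and DYNLT4, did not pass. DYNLRB1 (ENSG00000125971; hg38, chromosome 20, 34516395 to 34540958, plus strand) had 384, 363 and 382 CPM in the siPRMT1 libraries, against 157, 162 and 149 CPM in the control libraries. This rise was 2.41-fold and seen in every library, with a log2 fold change of 1.27 (SE 0.0208; adjusted p = 2.72e-240 by edgeR; 0.58 corrected). An unnamed gene, ENSG00000289720, spans 24354 bases of DYNLRB1 on the same strand and averaged 6326 counts in siPRMT1 libraries against 4150 in control libraries, so reads may be shared and the value is uncertain. Its relative DYNLRB2 was under the filter with 5, 4 and 6 counts in the siPRMT1 libraries, against 6, 3 and 3 counts in the control libraries.

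The Tctex light chains DYNLT1 and DYNLT3, which take the same place on dynein, moved in opposite directions. DYNLT1 had 113, 112 and 116 CPM in the siPRMT1 libraries, against 49.3, 48.7 and 48.3 CPM in the control libraries, a log2 fold change of 1.22 (SE 0.0336; adjusted p = 4.76e-145 by edgeR). DYNLT3 had 24.3, 24.1 and 23.6 CPM in the siPRMT1 libraries, against 56.4, 59.3 and 52.0 CPM in the control libraries, a log2 fold change of -1.22 (SE 0.0473; adjusted p = 1.04e-94 by edgeR). In control cells their CPM were close, and in siPRMT1 cells DYNLT1 was well above DYNLT3. Both kept direction and call after correction (1.05 and -0.37). Per kilobase the ratio of DYNLT1 to DYNLT3 was 13.7, 13.7 and 14.4 in siPRMT1 libraries, against 2.58, 2.42 and 2.74 in control libraries, 5.41-fold higher after knockdown (2.69-fold with the corrected values). DYNLT1 lay above 90.9% of all tested genes by log2 fold change and above 95.0% by corrected value.

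The LC8 genes, whose protein is also a dimerisation hub for many partners outside dynein, had small fold changes with TMM scaling. DYNLL1 had 297, 306 and 299.6 CPM in the siPRMT1 libraries, against 252, 264 and 262 CPM in the control libraries and rose by 0.21 (SE 0.0192; adjusted p = 1.07e-25 by edgeR), but was lower with library size alone (-0.10) and after correction (-0.10). DYNLL2 had 140.5, 139.7 and 135 CPM in the siPRMT1 libraries, against 109, 112 and 108 CPM in the control libraries and rose by 0.34, with 1.07 after correction and no call with library size alone (0.02). The ratio of DYNLL1 to DYNLL2 per kilobase was 21.7, 22.5 and 22.9 in siPRMT1 libraries, against 23.9, 24.3 and 24.9 in control libraries, 1.09-fold lower after knockdown (2.25-fold with the corrected values). DYNLL1 overlaps SRSF9 on the opposite strand over 26097 bases. DYNLT2B, a light chain of the ciliary dynein-2, rose by 0.61 (0.32 corrected) and overlaps 2 other genes on its own strand. DYNLT2 (-0.044) and DYNLT4 (-0.49) did not pass, and DYNLT2 was not called after correction either (-0.31). DYNLT4 had 4, 12 and 3 counts in the siPRMT1 libraries, against 10, 11 and 13 counts in the control libraries, and it was called lower after correction (-1.89) and without siPRMT1 replicate 2 (-1.24). Summed over DYNLL1, DYNLL2, DYNLT1, DYNLT3, DYNLRB1 and DYNLRB2, light chain level over heavy chain level per kilobase was 66.4, 65.5 and 65.2 in siPRMT1 libraries, against 25.5, 26.4 and 25.4 in control libraries, 2.55-fold higher after knockdown (1.23-fold with the corrected values). DYNLRB1 and DYNLL1, the largest terms of this sum in both groups, overlap other genes as given above, so this ratio is uncertain too.

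**Figure D3:**
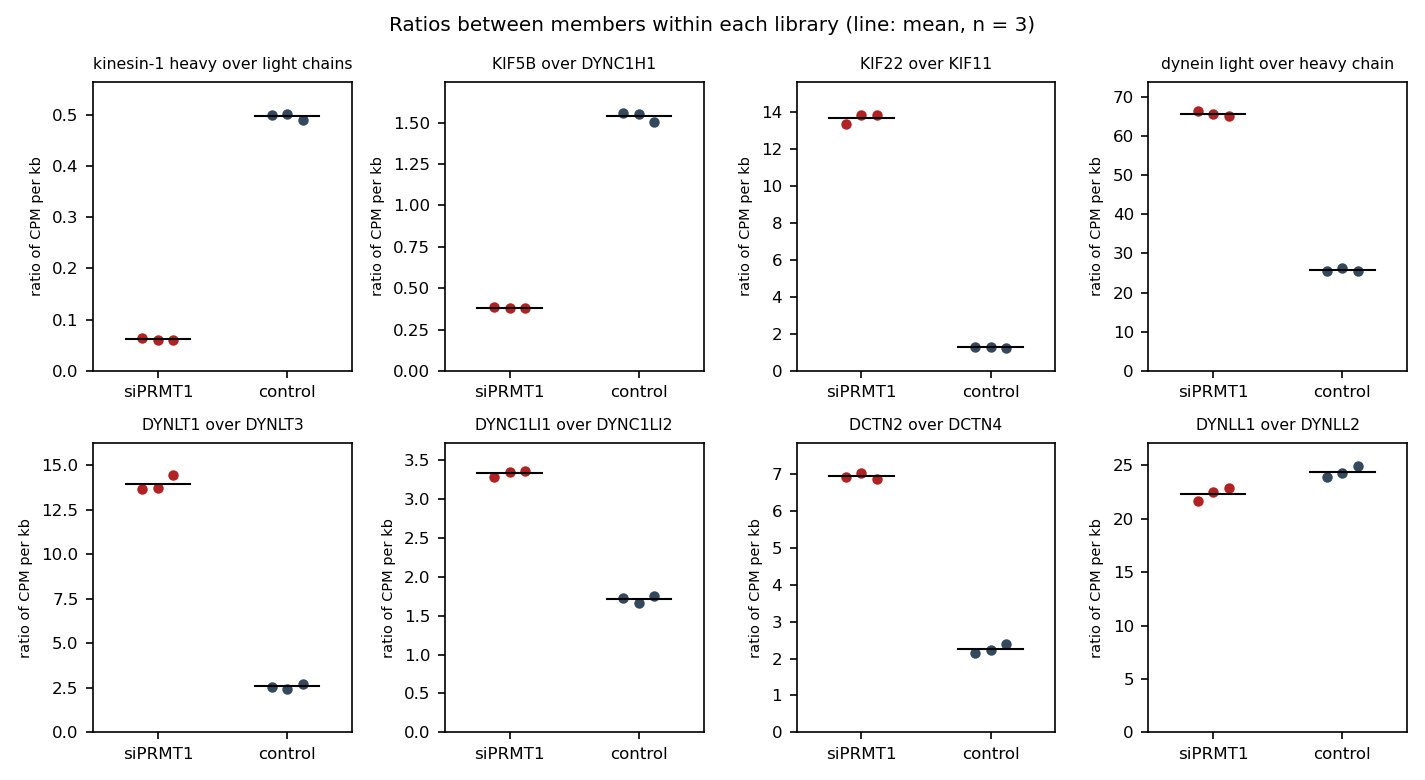
Ratios of CPM per kilobase between members within each library (vertical axes starting at 0), 3 siPRMT1 libraries left and 3 control libraries right, with the mean as a line. Every pair of groups is separate; kinesin-1 heavy over light chains is 8.06-fold lower and KIF22 over KIF11 10.7-fold higher in siPRMT1 libraries (2.61-fold and 3.04-fold with the corrected values).

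Dynactin, the complex that tethers dynein to its adaptors, was represented by 6 genes of which 4 rose and DCTN4 fell. DCTN2 (dynamitin), a component of the shoulder of the complex, had 207, 209 and 207 CPM in the siPRMT1 libraries, against 97.4, 99.7 and 103 CPM in the control libraries. It was 2.07-fold higher in siPRMT1 cells, with a log2 fold change of 1.05 (SE 0.0255; adjusted p = 1.17e-166 by edgeR; 0.69 corrected). DCTN3, its shoulder partner, had 118, 122 and 121 CPM in the siPRMT1 libraries, against 54.5, 53.1 and 53.5 CPM in the control libraries and rose by 1.16 (0.24 corrected). DCTN1 (p150Glued), which binds microtubules and the intermediate chain, had 164, 160.3 and 162 CPM in the siPRMT1 libraries, against 114, 109.6 and 112 CPM in the control libraries and rose by 0.53 (0.36 corrected). The shoulder and arm genes were thus higher with each scaling and after correction. The genes of the pointed-end complex, DCTN4, DCTN5 and DCTN6, were less uniform. DCTN4 had 62.3, 62.2 and 62.9 CPM in the siPRMT1 libraries, against 94.6, 93.0 and 90.0 CPM in the control libraries, a log2 fold change of -0.57 (SE 0.0336; adjusted p = 5.06e-51 by edgeR) that turned to 0.21 after correction. DCTN5 rose by 0.097 with TMM scaling, fell by library size alone (-0.22) and had a corrected value of 1.12, and DCTN6 did not pass (-0.07, adjusted p = 0.121 by edgeR), was lower by library size alone (-0.39) and was higher after correction (0.16). After correction all 6 were called higher, where 44.9% of all genes were, and their median was 0.30, beside 0.068 for all genes. The ratio of DCTN2 to DCTN4 per kilobase was 6.91, 7.01 and 6.86 in siPRMT1 libraries, against 2.15, 2.24 and 2.39 in control libraries, 3.07-fold higher after knockdown (1.39-fold with the corrected values). DCTN6 overlaps LEPROTL1, and DCTN1 an unnamed gene, on their own strands.

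The actin-like filament at the centre of dynactin and its capping protein are encoded by genes outside the rule, of which 3 rose and 3 fell. CAPZB (1.09, 0.58 corrected), the beta subunit of capping protein, and ACTR1A (0.85, 0.52 corrected), the main filament subunit, rose. CAPZA2 (-1.38, -0.35 corrected), an alpha subunit, fell. ACTR1B (0.33) rose, and CAPZA1 (-0.31) and ACTR10 (-0.51) fell, but each had the opposite sign after correction (-0.44, 0.31 and 0.014).

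Partners that load the motors onto cargo were examined from lists of their own. Of 14 tested adaptors and regulators of dynein, 4 rose and 10 fell, and after correction 4 were called higher and 8 lower. Their median was -0.61 (-0.20 corrected), beside -0.0082 (0.068 corrected) for all genes. NIN, a centrosomal activator of dynein, had 31.3, 32.1 and 29.8 CPM in the siPRMT1 libraries, against 105, 101 and 103 CPM in the control libraries and fell by 1.73 (-0.53 corrected). CCDC88A, a Hook-related actin-binding protein, fell by 1.88 (-0.40 corrected) and HOOK3, an endosomal adaptor, had a log2 fold change of -1.60 (-0.09 corrected). RILP, which links RAB7 on late endosomes to dynein, had 53.0, 52.2 and 52.6 CPM in the siPRMT1 libraries, against 19.0, 20.3 and 20.7 CPM in the control libraries and rose by 1.40 (0.13 corrected), and RAB11FIP3 (0.57, 0.15 corrected) and NDE1 (0.28, 0.14 corrected, but -0.036 with library size alone) rose as well. Of 17 adaptors and regulators of kinesin, 6 rose and 10 fell, with a median of -0.32 (0.044 corrected), and after correction 6 were called higher and 6 lower. SPAG9 (-1.09, 0.044 corrected), a scaffold of the JIP family, and the mitochondrial adaptor TRAK2 (-0.80, 0.26 corrected) fell, the sign of both turning after correction. PLEKHM2 (0.76, 0.29 corrected), which binds KLC2, and the mitochondrial GTPase gene RHOT2 (0.91, 0.047 corrected) rose, and MAP7D1 (0.44) rose but was lower after correction (-0.24). Of the 4 genes of dynein-2, the motor that returns cargo inside cilia, the heavy chain gene DYNC2H1 (-1.67, -0.18 corrected), DYNC2I1 (-0.36, -0.045 corrected) and DYNC2LI1 (-0.32, -0.13 corrected) fell, and DYNC2I2 rose (0.99) but was lower after correction (-0.13), where the other 3 were not called.

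The fold changes of the motor genes were ordered by base composition and length of the transcript, as those of other genes were. Across the 56 tested genes, which share libraries and are not independent, Pearson's r between log2 fold change and GC content was 0.627 (Spearman's rho 0.627), beside 0.619 (0.648) over all tested genes with a known transcript. With log2 length it was -0.524 (-0.582), beside -0.493 (-0.557). Among the kinesins alone the values were 0.792 for GC content and -0.632 for length, and among dynein and dynactin genes 0.390 and -0.458. Of the 19 motor genes with a GC content under 45%, DYNLT1 rose and 15 fell, and of the 14 above 55%, 11 rose and 1 fell. Transcripts shorter than 2000 bases had a median log2 fold change of 0.83 (10 motor genes), and those longer than 6000 bases -0.99 (16 motor genes), beside 0.79 and -0.94 for all tested genes of these lengths. KIF5B has a transcript of 5866 bases with 39.1% GC, and KLC2 one of 2953 bases with 63.6%. DYNLT1, with 730 bases and 43.4% GC, and KIF1C, with 7917 bases, lay above the upper quartile of genes of like GC content and of like length, in that order. By the other property each lay inside the quartiles. These were 0.39 and 1.32 for genes of a length like that of DYNLT1, and -0.22 and 0.84 for genes of a GC content like that of KIF1C (54.9%). After correction r over the 56 genes was 0.025 for GC content and -0.083 for length. How far the preparation of the libraries contributes to this order was not tested.

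**Figure D4:**
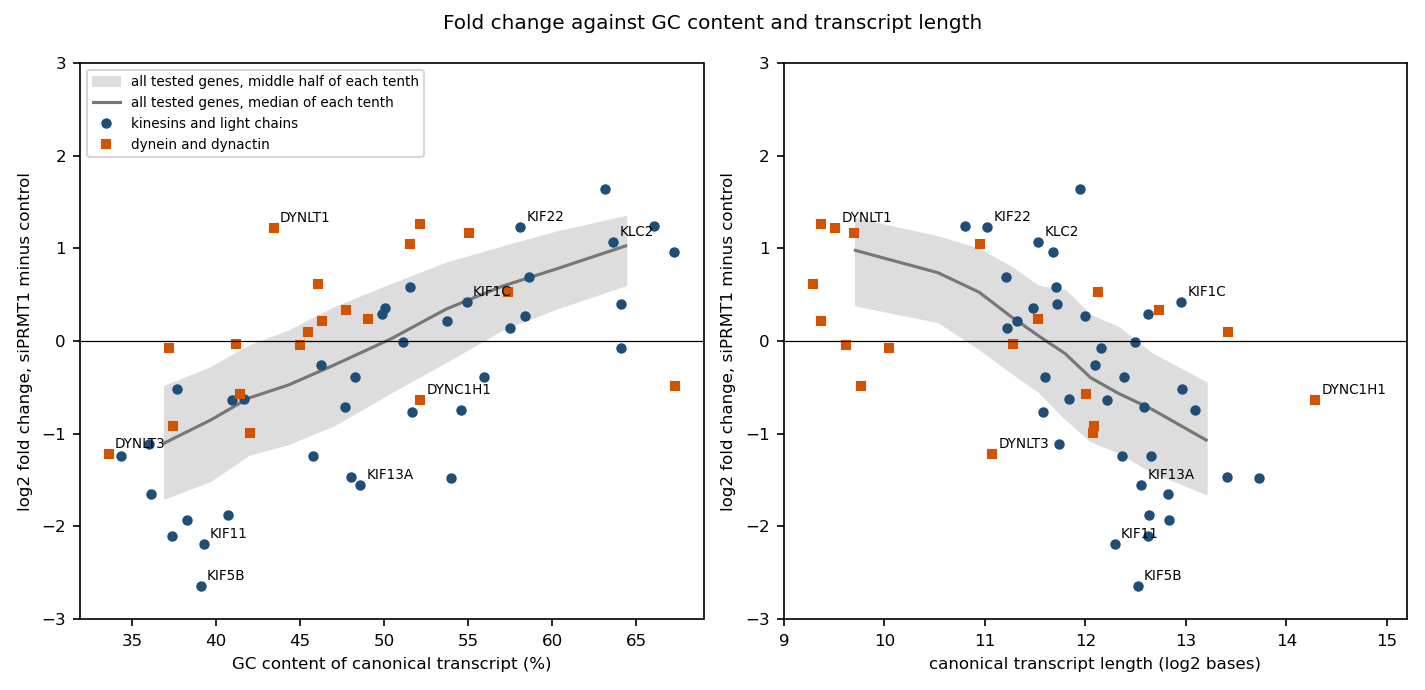
Log2 fold change (siPRMT1 minus control) of each tested motor gene against GC content (left, %) and length (right, log2 bases) of its canonical transcript. The grey line and band give the median and the quartiles of all tested genes, binned by the property; KIF5B (-2.65) and KIF11 (-2.19) lie under the band in both panels.

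Per kilobase, the level order among kinesin-1, dynein and dynactin genes ran over a wide range. In siPRMT1 cells DYNLRB1 (568 CPM per kilobase) and DYNLL1 (454) were the highest, and DYNLT1 (156), DCTN3 (145) and DCTN2 (105) followed. In control cells DYNLL1 (392 CPM per kilobase) stood above DYNLRB1 (236), DYNLT1 (66.8), DCTN3 (64.8) and DCTN2 (50.7). The order of DYNLRB1 and DYNLL1 is uncertain, since DYNLRB1 may share reads with ENSG00000289720, and control levels multiplied by the corrected fold changes gave 353 for DYNLRB1 and 365 for DYNLL1. Among kinesins KIF22 (58.8) and KIF2C (47.5) had the highest levels per kilobase in siPRMT1 cells, and KIF5B (44.05) and KIF2C (37.1) in control cells, leaving aside the light chain gene KLC1 (58.0 in siPRMT1 cells and 50.1 in control cells). The place of KIF22 is uncertain too. It stood below KIF2C in control cells, and the corrected values of KIF22 (0.47) and KIF2C (0.38) were close. With control levels multiplied by the corrected fold changes, KIF22 would lie below KIF2C and below KIF1C (0.74 corrected).

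The 11 genes under the filter had few counts in both groups. KIF2B, a depolymerase, and DYNLT5 had no count in any of the 6 libraries. KIF1A and KIF19, motors of neurons and of motile cilia, had 1 count each over all libraries. KIF12 had 3 counts in all, KIF26A 3, KIF4B 2 and KIF6 5. KIF21B, a relative of KIF21A found in neurons and immune cells, had 4, 5 and 5 counts in the siPRMT1 libraries, against 10, 4 and 3 counts in the control libraries. Depth does not allow a statement on a change in these genes.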

How the data were processed

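Whole-number counts per gene in 6 libraries (16968563 to 20545995 in all) were deposited by the authors as one table. Per the submitters' processing notes the genome was hg38, and the tools named, without roles, include STAR 2.7.6a, fastp 0.23.2, Subread 1.5.1 with featureCounts, and edgeR 3.40.2; no source states the strand setting or the annotation release. From the deposited counts, edgeR 4.0.16 (R 4.3.3, limma 3.58.1) was run with TMM scaling, its default filter on low counts and the quasi-likelihood test; p-values were adjusted over all 13710 tested genes, with a threshold of 0.05. Standard errors are the log2 fold change over the square root of F. Levels are means ± SD of n = 3. For the corrected fit, splines (5 df) of GC content and length of the GENCODE 44 canonical transcript, per library, entered as offsets (13694 genes). The common dispersion, 9.77e-05, is the lowest value edgeR's default search allows and so a floor; the p-values reflect the small spread between these libraries, which may be partly technical, so that very small changes passed the threshold. DESeq2 1.42.0, other scalings and filters, a replicate block and leaving out each library were alternatives. Named genes are, per role group, those with the highest and lowest log2 fold change and the highest level, plus listed paralog pairs, and up to 3 genes per direction of each partner list with the smallest adjusted p, of which 1 is not reported here (nor is 1 marker gene); KIF20B, KIF23, KIF9 and others are given to complete their groups. The members and lists were chosen with earlier results of these data known. No batch is given in the labels.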

Additional observations from a re-analysis of the deposited data

How the results depend on the processing

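Of the 56 tested motor genes, direction and side of the threshold were kept by 56 with DESeq2-type size factors, 55 with DESeq2, 55 without the filter and 53 of 53 at 1 CPM or more in 3 samples; KIF25 was the exception. With library size alone the log2 fold change was reversed for KIF18B (-0.0436), DCTN5 (-0.22), DYNLL1 (-0.10), KIFC1 (-0.18), KIF24 (-0.0287), KLC1 (-0.11) and NDE1 (-0.0364), where the shift of all genes by -0.317 enters by construction. The correction for GC content and length reversed these values, given with the value under the same correction and a replicate block in parentheses where it differs: KIFC1 -0.48, ACTR1B -0.44, KIFC3 -0.25, MAP7D1 -0.24, DYNC2I2 -0.13, KLC1 -0.10, DYNLL1 -0.10, KIF18B -0.0217 (-0.0253), KLC4 -0.00783 (-0.00916), DYNC1H1 0.0103, ACTR10 0.014 (0.015), SPAG9 0.0442 (0.0438), KIF23 0.0635 (0.0629), DCTN6 0.16, DYNC1I2 0.16, DCTN4 0.21, TRAK2 0.26, KIF15 0.27, KIF4A 0.29, KIF20B 0.31, CAPZA1 0.31, KIF5A 0.41 (0.42), DYNC1LI1 0.41, CENPF 0.51 (0.52) and KIF2A 0.90; the cause was not tested. Counts of at least 2-fold changes moved most. Over all genes, 901 were higher with library size alone, 782 higher and 1166 lower after the correction, and 784 and 1168 when the replicate block was added. Over all motor genes 15 were higher and 1 at least 2-fold higher with library size alone, and 4 at least 2-fold higher and 3 lower after the correction, with or without the block. For the kinesins 9 were higher and 1 at least 2-fold higher with library size alone, and 1 at least 2-fold higher and 2 lower after the correction, with or without the block. For dynein and dynactin 9 were lower with library size alone, 3 of them at least 2-fold. With this scaling 0 were at least 2-fold higher by edgeR's quasi-likelihood test (0 also at an unadjusted p under 0.05). That count was 4 by edgeR with TMM scaling, and 4 by DESeq2, which was run with its own size factors. Without the filter 2 dynein and dynactin genes were at least 2-fold lower, and leaving out one library gave 1 to 2, with 2 without control replicate 3, siPRMT1 replicate 1 or siPRMT1 replicate 2. Without siPRMT1 replicate 2, DCTN6 (-0.10) and DYNLT4 (-1.24) passed the threshold. In an alternative chosen after seeing the data, the corrected fold changes kept the direction of each ratio recomputed but moved kinesin-1 heavy over light chains by 3.09 times and KIF22 over KIF11 by 3.53 times. Same-numbered replicates share only a number: their deviations correlated by -0.0104, 0.0366 and 0.0015, 1 of the 3 siPRMT1 libraries correlated best with its own number, and a replicate block gave 23 higher and 25 lower motor genes, the lost call being KIF25. Depth limits the 11 genes under the filter and KIF17, KIF25, KIF26B and DYNLT4, which rest on few counts.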
